A study of Mus musculus with 8 samples.

Results

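The genes described here are 7 targets of the YAP and SRF transcription pathways: Ccn1, Ccn2, Ankrd1, Ajuba, Zyx, Amotl2 and Lats2. All 15 probe sets that carry one of these symbols alone were taken from 22690 on the array, and 10 of them lay above the brightness limit used for testing (a mean log2 value of 7.04, which leaves out the dimmest 30%). Through these, 6 of the 7 genes were among the 9294 genes tested, and Ankrd1 was not. The genes were chosen from these measurements, because Ccn2 and Zyx were above untreated in the first hour and Ajuba was low. Ajuba was below both untreated arrays at 20 and 40 min but not at 60 min, and it was lowest at 240 min. The first-hour values of the members, and those of Ajuba at any time, are therefore given as a description, with no test.

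YAP is a coactivator that enters the nucleus when the Hippo kinases are inactive and binds DNA through TEAD factors. SRF binds the CArG box and is driven either by MRTF coactivators, which are held back by monomeric actin, or by ternary complex factors downstream of growth factor signalling. Both pathways respond to cell shape, adhesion and serum, and in the epidermis YAP is active in basal keratinocytes. Several of the genes feed back on the pathway, since Lats2 encodes a kinase that phosphorylates YAP, Amotl2 a protein that holds YAP outside the nucleus, and Ajuba a LIM domain protein that restrains the LATS kinases.

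The cells were mouse primary keratinocytes infected with a retrovirus named EMPTY, and every array, untreated ones included, came from such cells. The labels give neither strain, age, dose nor vehicle. There were 2 arrays titled untreated and 6 tamoxifen arrays, 1 each at 20, 40, 60, 120, 180 and 240 min, although a description common to all samples, the untreated ones included, mentions tamoxifen. Since tamoxifen-free cells taken at matching times were not analysed here, tamoxifen, time and handling cannot be told apart. Values are log2(intensity + 16), and differences on that scale understate those of dim probe sets.

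Keratinocyte markers were bright on every array, with a mean of 9 genes between 12.53 and 12.63 and with Krt14, Krt5 and Trp63, the keratins and the p63 factor of basal cells, at 14.29, 14.11 and 10.04. All 7 endothelial markers lay below the brightness limit. Melanocyte genes were bright, with Dct at 11.89 and a mean of 6 genes between 10.01 and 10.17. Of 10 fibroblast markers with a probe set 8 passed the limit, and their mean was 7.96 and 8.01 in the untreated arrays, 7.87 to 7.90 at 20 to 60 min and 7.95 to 8.10 at 120 to 240 min. The mean of 4 leukocyte markers was 7.65 and 7.74, then 7.50 to 7.54, then 7.61 to 7.85, with Ptprc, the defining leukocyte gene CD45, below the limit. In the first hour all 4 were below untreated, with a median of -0.16, and 3 had an unadjusted p under 0.05, among them H2-Ab1 (-0.35 ± 0.14, SE). All 4 muscle markers tested were below untreated too, Mylpf farthest (-0.41 ± 0.16, SE), and 7 of 8 fibroblast markers were, with a median of -0.10. Over all 9294 genes tested, 44.5% were above untreated in the first hour, and 1288 had an unadjusted p under 0.05 (limma). No marker gene was called, and the part of these marker lists in the first-hour values of the target genes and their pathways was not tested. In bulk RNA, fewer cells of a type and less RNA per cell cannot be told apart. As a measure of proliferation, 18 genes of G2 and M phase averaged 9.64 and 8.80 in untreated replicates 1 and 2, 9.08, 9.43 and 9.30 at 20, 40 and 60 min and 8.83, 8.93 and 9.55 at 120, 180 and 240 min.

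RefSeq promoter windows of 300 bases (250 before the start and 50 after it, build GRCm38.p6) were found for 6 of the 7 genes, all but Ccn2, and show which of these 6 carry the letters of a TEAD element next to the start. The windows were searched on both strands for GGAATG, the core of the TEAD element, for the CArG box of SRF, and for the AP-1 site TGANTCA. No match overlapped another in these windows. The letters of the TEAD element were in 5 of 7 member windows (Lats2 has 2 windows, and 1 of them matched), against 14.7% of 32851 mouse promoter windows. None of the 7 held a CArG box, which 1.63% of all windows hold, and the Zyx window held an AP-1 site, which 7.81% hold. A match is a description of the letters and not a site shown to be bound, and a window without one says nothing of the factor. The 250 bases before the start of Ccn1 (chr3:145649986-145650235, minus strand), Ajuba (chr14:54577662-54577911, minus strand) and Ankrd1 (chr19:36119845-36120094, minus strand) are shown 5′ to 3′ along the gene, with TEAD element matches in capitals. For Amotl2 (chr9:102717727-102717756) and Zyx (chr6:42349695-42349724), both on the plus strand, 30 bases around the match are shown, with the TEAD element of Amotl2 and the AP-1 site of Zyx in capitals.
Ccn1: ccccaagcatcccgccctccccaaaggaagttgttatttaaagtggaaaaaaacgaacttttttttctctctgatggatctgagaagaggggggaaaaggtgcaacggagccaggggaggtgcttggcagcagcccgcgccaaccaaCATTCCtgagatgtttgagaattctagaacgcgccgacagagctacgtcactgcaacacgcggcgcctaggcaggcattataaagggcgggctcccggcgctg
Ajuba: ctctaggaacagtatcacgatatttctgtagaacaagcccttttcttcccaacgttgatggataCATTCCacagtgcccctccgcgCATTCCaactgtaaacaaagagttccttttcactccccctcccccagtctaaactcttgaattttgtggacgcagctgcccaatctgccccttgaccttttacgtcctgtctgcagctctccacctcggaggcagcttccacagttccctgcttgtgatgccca
Ankrd1: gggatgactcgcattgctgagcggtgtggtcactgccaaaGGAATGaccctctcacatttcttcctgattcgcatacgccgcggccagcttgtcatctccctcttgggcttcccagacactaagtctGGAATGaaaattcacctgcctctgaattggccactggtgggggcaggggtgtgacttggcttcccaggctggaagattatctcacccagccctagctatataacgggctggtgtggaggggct
Amotl2: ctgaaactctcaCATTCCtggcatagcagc
Zyx: gagtgcggacagTGAGTCAgttctccagca
Relative to the start, the matches of Ajuba lay at -186 to -181 and -164 to -159, those of Ankrd1 at -210 to -205 and -123 to -118, that of Ccn1 at -103 to -98 and that of Amotl2 at -65 to -60. The AP-1 site of Zyx lay at -121 to -115. The start is that of the RefSeq window: the annotated Zyx and Amotl2 genes begin farther upstream (at 42349511 and 102717091), so both stretches of 30 bases lie inside the annotated gene.

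Ccn2, which encodes a secreted matricellular protein of the CCN family, was higher in all 6 tamoxifen arrays than in both untreated arrays, and its values were largest in the first hour. Its log2 values were 8.85 and 8.90 in the untreated arrays, 9.27 at 20 min, 9.45 at 40 min, 9.90 at 60 min, 9.22 at 120 min, 9.07 at 180 min and 9.02 at 240 min. The order of the arrays was thus stepwise up to 60 min and stepwise down after it. The 240 min array lay 0.12 above the nearer untreated array, against 0.05 between the untreated arrays. Its difference from the untreated mean, 0.15, ranked only 1014th from the top of 9294 genes at that time. The 60 min value was 1.02 above the untreated mean, a fold of 2.03, and was the third highest such difference among 9294 genes at that time. The mean of the 3 arrays of the first hour was 9.54 ± 0.32 (SD over 3 times, 1 array each) against 8.88 ± 0.04 (SD, n = 2), a difference of 0.67 ± 0.15 (SE). That spread holds the differences between times.

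Zyx, the focal adhesion LIM protein zyxin and a target of SRF, was likewise highest at 60 min. Its log2 values were 9.99 and 9.73 in the untreated arrays, 10.14, 10.31 and 10.50 at 20, 40 and 60 min and 9.80, 9.77 and 10.18 at 120, 180 and 240 min. The first-hour arrays all lay above both untreated arrays, the 120 and 180 min arrays lay between them, and the 240 min array lay above them again. The first-hour mean was 10.32 ± 0.18 (SD over 3 times) against 9.86 ± 0.18 (SD, n = 2), a difference of 0.46 ± 0.14 (SE) or a fold of 1.37. A second, dimmer Zyx probe set had 8.60 and 8.42 in the untreated arrays, 8.81, 8.96 and 9.11 in the first hour and 8.52, 8.47 and 8.71 later. It gave a first-hour difference of 0.45. Array by array, the largest disagreement between the differences of both probe sets from their untreated means was 0.123.

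**Figure D1:**
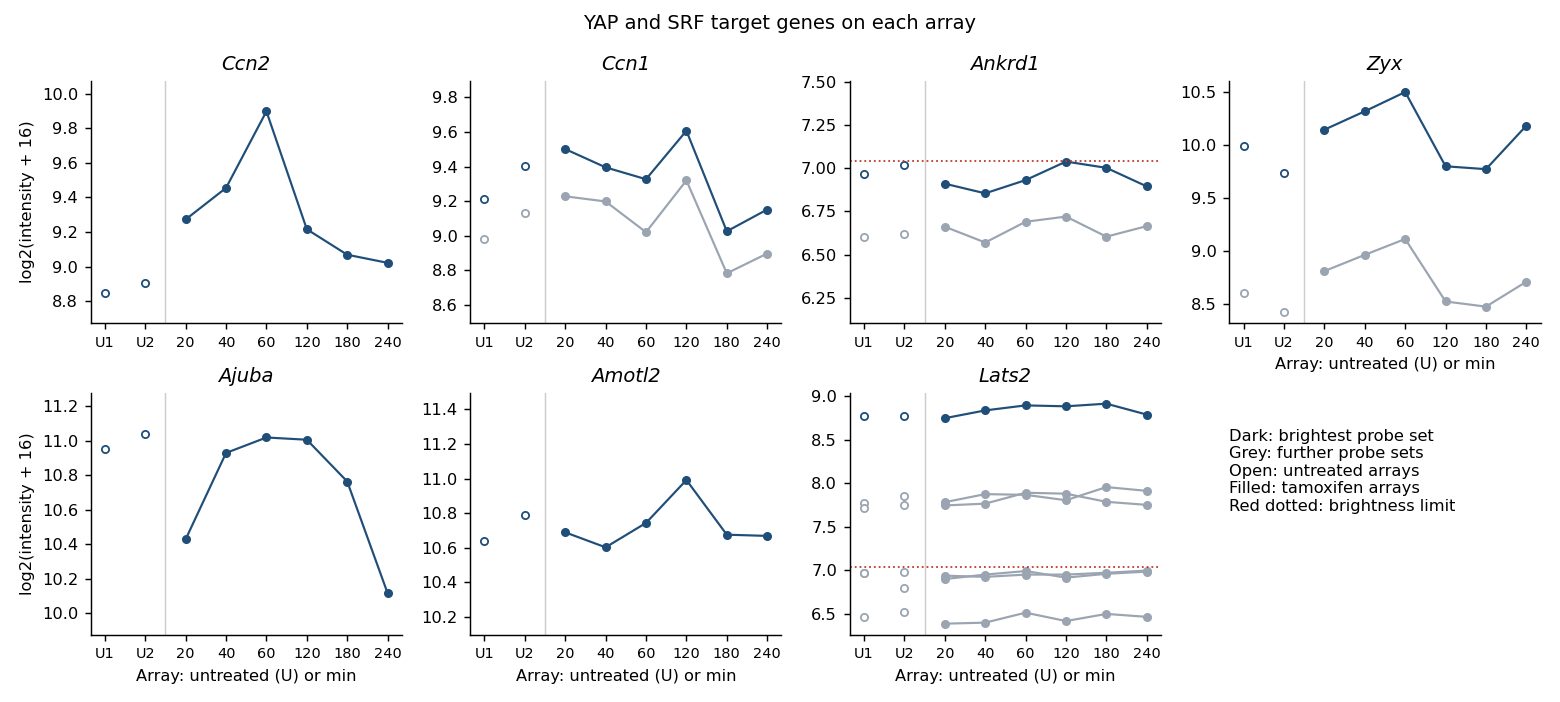
Log2(intensity + 16) of every probe set of the 7 genes on each of the 8 arrays (U1 and U2, untreated; numbers, min after tamoxifen); each panel has its own range, single arrays have no error bar, and lines join tamoxifen times. Ccn2 and Zyx are highest at 60 min, Ccn1 and Amotl2 at 120 min, Ajuba is lowest at 20 and 240 min, and the mean of each Ankrd1 probe set lies below the brightness limit (dotted).

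The lowest levels of Zyx went with the lowest levels of the proliferation genes. The 3 arrays with the lowest G2 and M phase means, untreated replicate 2, 120 min and 180 min, were the 3 with the lowest Zyx (9.73 to 9.80). Zyx was 9.99 to 10.50 on the other 5 arrays. Within those 5 it did not follow the proliferation genes: untreated replicate 1, with the highest G2 and M phase mean (9.64), had the lowest Zyx (9.99). Ccn2 showed no split between the 3 arrays (8.90 to 9.22) and the other 5 (8.85 to 9.90). The split was not particular to Zyx. Of genes named below, Edn1, F3, Cald1 and Flna were also lowest on those 3 arrays, while Gadd45a and Asap1 were not. With the G2 and M phase mean as a covariate, the first-hour differences were 0.67 for Ccn2 and 0.43 for Zyx, against 0.67 and 0.46 without it. The first-hour G2 and M phase means (9.08 to 9.43) lay inside the span of the untreated ones (8.80 to 9.64). With windows this alike the covariate could hardly move these differences, so the part of proliferation in them was not tested. The 60 min array, where both genes were highest, was also where the Actb control probe sets at the 3′ and 5′ ends differed least in log2 value (0.20, against 0.26 to 0.28 elsewhere). The Gapdh control did not set this array apart, at -0.01 there, -0.000581 at 20 min and -0.07 to -0.03 on the others. The part of the 60 min array in the result was not tested. Without that array the first-hour differences were 0.49 for Ccn2 and 0.37 for Zyx.

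**Figure D2:**
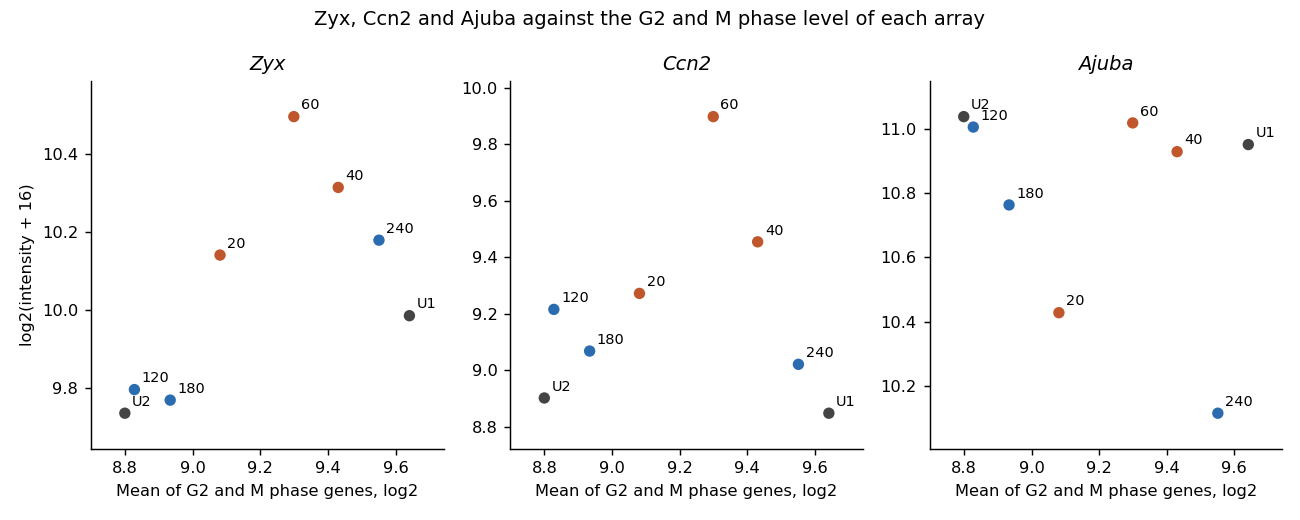
Log2(intensity + 16) of Zyx, Ccn2 and Ajuba against the average of 18 proliferation genes (G2 and M phase) on the same array; each point is 1 array (dark, untreated U1 and U2; orange, 20 to 60 min; blue, 120 to 240 min). The 3 arrays at the left hold the 3 lowest Zyx values (9.73 to 9.80), while Ccn2 and Ajuba show no such split.

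Ajuba was low on 2 arrays that are not neighbours in time. Its log2 values were 10.95 and 11.04 in the untreated arrays, 10.43 at 20 min, 10.93 at 40 min, 11.02 at 60 min, 11.00 at 120 min, 10.76 at 180 min and 10.12 at 240 min. The 60 and 120 min arrays lay between the untreated arrays and the 40 min array lay 0.02 below them. At 20 min the difference from the untreated mean was -0.57, the 8th lowest of 9294 genes, and at 240 min it was -0.88, a fold of 0.544 and the third lowest. The residual SD of Ajuba within the windows, 0.35, was at the 99.6th percentile of all genes, and the window means (10.79 ± 0.32 and 10.63 ± 0.46, SD over 3 times each) describe its course poorly. Its first-hour difference of -0.20 was -0.02 without the 20 min array, and its difference of -0.37 at 120 to 240 min was -0.11 without the 240 min array. Ajuba had 1 probe set with a single symbol, so no second probe set could be set beside it.

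Ccn1, the paralogue of Ccn2, did not share its course. Its log2 values were 9.21 and 9.40 in the untreated arrays, 9.50, 9.40 and 9.33 at 20, 40 and 60 min and 9.61, 9.03 and 9.15 at 120, 180 and 240 min. The arrays of 40 and 60 min lay between the untreated arrays, where Ccn2 was farthest from its own. The highest Ccn1 value was at 120 min and the lowest at 180 min, 0.58 apart, against 0.19 between the untreated arrays. A second probe set was also highest at 120 min (9.32) and lowest at 180 min (8.78). Array by array, the largest disagreement between the differences of both from their untreated means was 0.055.

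Amotl2 was also highest at 120 min. Its values were 10.64 and 10.79 in the untreated arrays, 10.69, 10.60 and 10.74 in the first hour, and 10.99, 10.68 and 10.67 at 120, 180 and 240 min. The 120 min array lay 0.21 above the nearer untreated array, more than the 0.15 between the untreated arrays, and the others were within 0.04 of the untreated range. The 120 min array also had the highest fibroblast mean (8.10, against 7.87 to 8.01 on the other arrays), with the matrix gene Sparc at 10.88 there against 10.38 to 10.62 elsewhere, and the highest mean of 4 leukocyte markers (7.85, against 7.50 to 7.74), and the part of these in the Ccn1 and Amotl2 values was not tested.

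Lats2 hardly varied. Its brightest probe set was 8.77 in both untreated arrays, 8.74, 8.83 and 8.89 in the first hour and 8.88, 8.91 and 8.79 later, a range of 0.17 over 8 arrays. The untreated arrays differed by 0.00375, so the late arrays all lay above them, but by 0.14 at most. The other 2 Lats2 probe sets above the brightness limit gave 0.03 and 0.07 in the first hour and 0.08 and 0.07 at 120 to 240 min. Neither had all late arrays above both untreated arrays. The first was 7.80 at 120 min, against 7.77 and 7.86 untreated. The second was 7.751 at 240 min, against 7.712 and 7.753 untreated. The 3 probe sets below the limit gave -0.06 to 0.06 in the first hour and -0.03 to 0.07 later. Ankrd1, a nuclear ankyrin repeat protein often used as a YAP readout, had probe set means of 6.95 and 6.64, both under the limit, with differences of -0.09 and 0.03 in the first hour and -0.01 and 0.05 later. Ankrd1 was thus left out of the test, and how large a difference would show at these intensities was not measured.

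**Figure D3:**
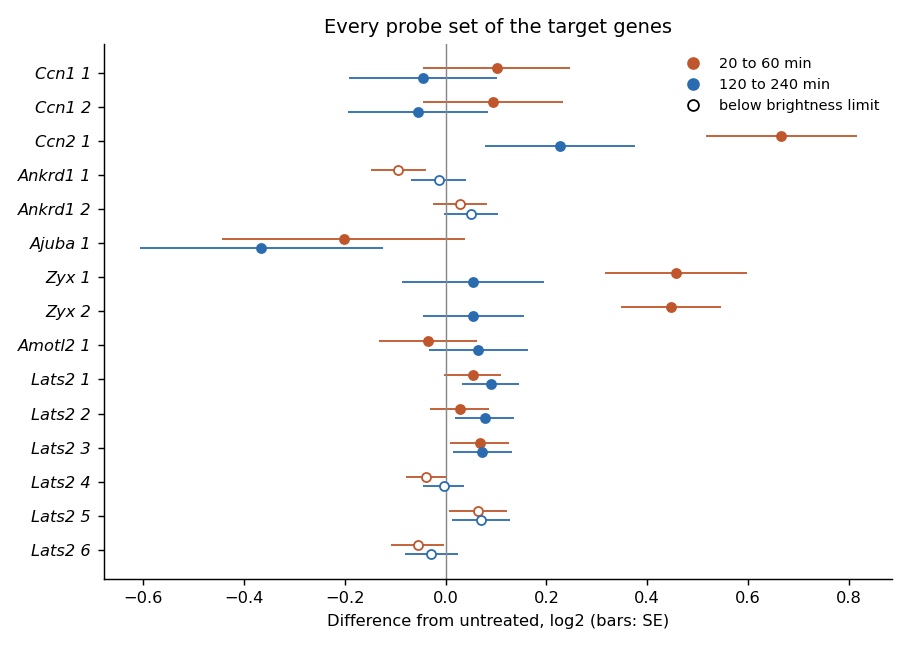
Difference from untreated (log2) of all 15 probe sets at 20 to 60 min (orange) and 120 to 240 min (blue); bars are SE from limma, probe sets of a gene are numbered from the brightest, and open symbols mark probe sets below the brightness limit. The single Ccn2 probe set (0.67) and both Zyx probe sets (0.46 and 0.45) stand to the right in the first hour, and Ajuba has the longest bars.

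No gene passed in any of the 3 comparisons of pooled times (limma with Benjamini-Hochberg adjustment, adjusted p under 0.05 as threshold), so 0 of 6 members were called in each, against 0% of all genes. At an unadjusted p under 0.05 there were 1288 genes at 20 to 60 min against untreated, 295 at 120 to 240 min against untreated and 1811 between the windows. These counts rest on single arrays: the first was 824 without 40 min and 729 without 60 min, but 1415 without 20 min and 1714 without 240 min. The second was 176 without 180 min and 518 without 240 min, and the third was 1008, 874 or 973 when the 40, 120 or 180 min array was left out, and 2881 without 240 min. The first 2 comparisons share the untreated arrays. At 120 to 240 min the members differed from untreated by 0.23 ± 0.15 (Ccn2, SE), 0.05 ± 0.14 (Zyx), -0.05 ± 0.15 (Ccn1), 0.07 ± 0.10 (Amotl2), 0.09 ± 0.06 (Lats2) and -0.37 ± 0.24 (Ajuba). The adjusted p was 0.999 for each of the first 5, and Ajuba, chosen for its low values, is given without one. Between the windows Ccn2 was at -0.44 ± 0.13 and Zyx at -0.40 ± 0.13, and the other 4 lay between -0.16 and 0.10. Between the windows, 1014 genes passed without the 240 min array, and 0 passed when any other single array was left out. Differences between the windows hold the first-hour arrays from which Ccn2 and Zyx were chosen, so those of the members are a description.

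**Figure D4:**
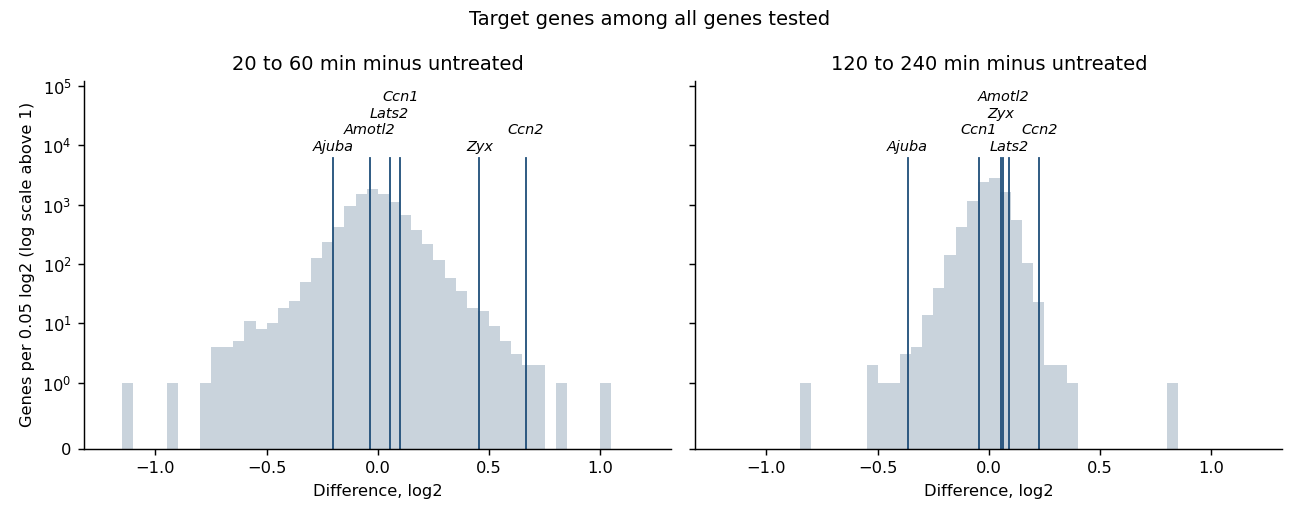
Histograms of the differences of 9294 genes from untreated in both windows, in steps of 0.05 log2, with a line for each of the 6 genes tested; counts are on a log scale above 1. In the first hour Ccn2 (0.67) and Zyx (0.46) lie in the right tail, and at 120 to 240 min Ajuba (-0.37, or -0.11 without the 240 min array) lies in the left tail.

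Counted by time, a gene was taken as apart where it lay at least 0.5 log2 (1.41-fold) from both untreated arrays, with no replicate to check it. Ajuba was such a gene on the low side at 20 min (0.0538% of all genes) and at 240 min (0.0753%). Ccn2 was on the high side at 40 min (0.0538%) and, with Zyx, at 60 min (0.344%). These arrays chose the members, so nothing is read from the counts. No member was apart on the other side or at the other times, where the shares were 0.0108% (20 min, higher), 0.129% (40 min, lower), 0.452% (60 min, lower), 0.0323% and 0.0215% (120 min, higher and lower), 0.0108% and 0.0215% (180 min) and 0.0215% (240 min, higher). All 3 arrays lay above both untreated arrays for Ccn2 and Zyx in the first hour, as for 16.1% of all genes. No member lay wholly below them (20.1%). At 120 to 240 min this held for Ccn2 and, on its brightest probe set only, for Lats2, as for 9.26% of genes. Again no member lay wholly below (7.98%). Between the windows, Ccn2 alone of the 6 had all late arrays below all early arrays, as had 8.5% of genes, and none lay wholly above (13.6%).

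Other target genes of YAP and TEAD lay on both sides of untreated in the first hour. Of 23 genes listed, 16 were tested, 9 above and 7 below, 0 called in either direction, with a median of 0.04 against -0.01 over all genes. Those with the smallest p were the stress gene Gadd45a (0.44 ± 0.09, SE), the endothelin gene Edn1 (0.63 ± 0.15), the tissue factor gene F3 (0.51 ± 0.12) and Asap1, a regulator of ARF GTPases (0.21 ± 0.06). Like Ccn2, Gadd45a was highest at 60 min, with 8.02 and 8.04 in the untreated arrays, 8.35, 8.47 and 8.59 in the first hour and 8.30, 8.10 and 8.06 later. Edn1 had 7.73 and 7.50, then 7.98, 8.22 and 8.53, then 7.53, 7.63 and 7.84. F3 had 10.02 and 9.64, then 10.15, 10.44 and 10.42, then 9.78, 9.89 and 9.99. The untreated arrays of F3 were thus far apart, with replicate 2 at -0.38 from replicate 1. The receptor tyrosine kinase gene Axl was at -0.13 ± 0.05, and a second Asap1 probe set gave -0.02. At 120 to 240 min, 13 of the 16 were above untreated with a median of 0.03, against 0.01 over all genes, and 0 were called.

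Cytoskeletal SRF and MRTF targets were mostly a little above untreated. Of 18 tested genes, 16 were above in the first hour with a median of 0.07, against 44.5% of all genes above 0 and a median of -0.01, and 0 were called. The actin-binding proteins Cald1 (0.21 ± 0.06, SE) and Flna (0.21 ± 0.07), the smooth muscle actin gene Actg2 (0.17 ± 0.05) and Tgfb1i1, a LIM protein of focal adhesions (0.17 ± 0.06), had the smallest p. Actg2 was dim, with 7.06 and 6.94 in the untreated arrays, and their mean lay below the brightness limit of 7.04. It was tested only because its mean over all arrays, raised by the tamoxifen arrays, passed that limit, so its place here carries little weight. All 3 Cald1 probe sets gave 0.21 to 0.26. Actb was at 0.02 on its brightest probe set, which reads 13.91, and at -0.16 on a dimmer one. At 120 to 240 min, 16 of 18 were above untreated too, with a median of 0.05 against 55.2% of all genes above 0. The highest first-hour difference in this list, that of the calponin gene Cnn2, was 0.23.

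Immediate early SRF targets, which respond through ternary complex factors, had no course like that of Ccn2 as a group. Of 8 tested, 6 were above untreated in the first hour with a median of 0.07, and 0 were called. Egr2 was at 0.22 ± 0.07 (SE) with 7.24 and 7.33 in the untreated arrays, 7.44, 7.46 and 7.60 in the first hour and 7.17, 7.30 and 7.20 later. Egr1 had 9.60 and 9.56, then 9.93, 9.31 and 9.41, then 9.07, 9.61 and 10.01, so it was highest at 20 and 240 min, the arrays on which Ajuba was lowest. Fos was at 0.11 ± 0.09, Ier2 at 0.10 ± 0.07, and Mcl1 at 0.09 ± 0.05 with 4 of its 5 further probe sets between -0.16 and -0.14.

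Srf, which is also in the list of its own targets, was 9.27 and 9.08 in the untreated arrays, 9.26, 9.43 and 9.32 in the first hour and 9.19, 9.04 and 9.15 later, a first-hour difference of 0.16 ± 0.08 (SE). Of 5 genes for SRF and its cofactors, 3 were above and 2 below untreated in the first hour, and 0 were called. Elk3, a ternary complex factor, was the farthest from untreated at -0.42 ± 0.15, with 9.93 and 9.96, then 9.65, 9.56 and 9.38, then 10.37, 10.03 and 9.77. Its other 2 probe sets gave -0.33 and -0.34, while for Elk1 (-0.24 ± 0.06) the second gave 0.04. The SRF coactivator gene Mrtfa was at 0.03 ± 0.06.

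Of 7 genes for YAP, TAZ, TEAD and VGLL factors, 3 were above untreated and 4 below in the first hour, 0 were called, and the median was -0.02. Yap1 was at 0.10 ± 0.06 (SE), Wwtr1, which encodes TAZ, at 0.01 ± 0.06, and Tead4 at 0.24 ± 0.08 with 7.57 and 7.55, then 7.67, 7.79 and 7.94, then 7.67, 7.67 and 7.73. Second probe sets gave 0.25 for Yap1 and 0.19 for Tead4, and further Wwtr1 probe sets gave 0.07 and 0.14. Tead3 was at -0.10 ± 0.09, and Vgll4 at -0.06 ± 0.07. Of 10 Hippo kinases and upstream proteins, 6 were above and 4 below untreated, 0 were called and the median was 0.03. Frmd6 (0.12 ± 0.06) and Wwc1, the scaffold also called KIBRA (0.16 ± 0.08), had the smallest p. The angiomotin gene Amot (-0.10 ± 0.06) and Sav1, the scaffold of the Hippo kinases (0.12 ± 0.07), followed. The next brightest probe sets gave 0.20 for Wwc1, -0.11 for Amot and 0.04 for Sav1. Of the other LIM proteins of the zyxin and Ajuba family, Lpp was at 0.15 ± 0.09, Trip6 at 0.05 ± 0.06 and Limd1 at -0.00264 ± 0.06. The 3 further Lpp probe sets were at 0.20, -0.01 and -0.02. Whether Zyx, chosen for its first-hour values, differs from its family was not tested.

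**Figure D5:**
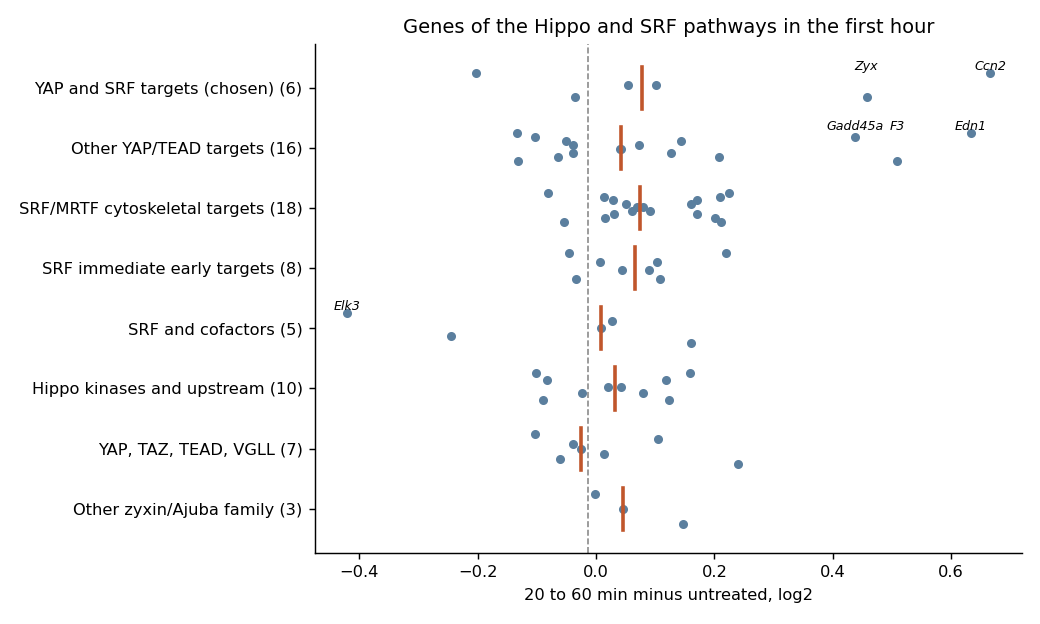
Difference from untreated at 20 to 60 min (log2) for each tested gene of 8 lists, 1 point per gene, with the number tested in parentheses, the list median as an orange bar and the median of all genes (-0.01) as a dashed line; vertical offsets only separate points. Ccn2, Zyx, Edn1, F3 and Gadd45a lie above 0.4 and Elk3 below -0.4, and the other points lie closer to 0.

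Among all genes tested, likeness of course was measured by Pearson's r over the 8 arrays, as a description. The genes most like Ccn2 were Mrps30 (r = 0.979), Uqcc3 (0.973), Aatf (0.973), Nploc4 (0.969) and Gnl2 (0.966), and 76 genes had an r of 0.9 or more. Those most like Zyx were R3hcc1 (0.995), Nup153 (0.992), Hspa9 (0.992), Coq3 (0.991) and Gadd45gip1 (0.991), among 551 genes at 0.9 or more. Only 7 genes reached 0.9 with Ajuba, led by Fzd9 (0.956), B4galt7 (0.936), Pptc7 (0.926), Tspyl1 (0.908) and Cdk6 (0.906). Each of these 5 was lowest at 240 min and next lowest at 20 min, as was Ajuba. Likeness of shape is not likeness of size: Fzd9 spanned 0.07 log2 over the arrays and Tspyl1 0.88, against 0.92 for Ajuba. Between the members themselves, r was 0.769 for Ccn2 and Zyx, 0.609 for Ccn1 and Amotl2, 0.271 for Ccn1 and Ccn2 and -0.179 for Ajuba and Zyx, all over the same 8 arrays and libraries.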

How the data were processed

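Per the labels, Trizol was used to extract total RNA, and cRNA carrying biotin was made for Affymetrix arrays. The deposited values are linear intensities, already summarised per probe set and scaled by the authors, by a method not given in the sources used here. Array medians lay between 192 and 198, so no further scaling was applied and log2(intensity + 16) was used. Array number limits the precision. Whether the arrays stand for separate cultures is not in the labels, and the p-values therefore reflect only how far these arrays differ, which may be technical.

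Groups were taken from the sample titles. Genes were named from the platform annotation: 20380 probe sets had 1 symbol, 691 several and 1555 none here, and 64 controls were left out; 20351 of the first matched RefSeq (GRCm38.p6) by Entrez identifier. The dimmest 30% of probe sets were left out, and the brightest single-symbol probe set stood for a gene.

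All 8 arrays were fitted with limma 3.58.1 in R 4.3.3 (lmFit, eBayes) in 3 groups: 2 untreated arrays, 3 arrays at 20 to 60 min and 3 at 120 to 240 min, which leaves 5 residual degrees of freedom, and adjusted over all genes tested. Times were pooled because each has 1 array. The fit was tested on simulated data. Tables, likeness and promoter matches were computed in Python 3.11.15. Alternatives were other pseudocounts, filters, normalizations and probe set summaries, array weights, the G2 and M phase mean as a covariate, and leaving out each array; a fit of every probe set alone was added after seeing the data.

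Named were the members with all their probe sets, up to 4 genes of each list with the smallest p, Srf, Yap1, Wwtr1, Actb, Trip6 and Limd1, and the 5 genes most like Ccn2, Zyx and Ajuba. Egr1, the first-hour values of Axl and Cnn2, and the marker genes given with values were singled out after their values were seen. The members and lists were chosen with earlier results of these data known.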

Additional observations from a re-analysis of the deposited data

How the results depend on the processing

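Over 17 alternatives the first-hour difference lay between 0.49 and 0.80 for Ccn2 and between 0.33 and 0.58 for Zyx. Both were chosen for being high on these arrays, so the range describes the processing and does not support the direction. Of 306 member values under alternatives, 299 stayed within 1 residual SD of the value reported without passing the threshold, and 7 passed it. Those 7 all hold the first-hour arrays from which the genes were chosen, so they count as no test of the members. Array weights gave the 180 min array a weight of 7.12 and the 240 min array 0.378. The sign was not the same under every alternative for Amotl2 in any comparison, for Ccn1 and Zyx at 120 to 240 min, or for Ajuba and Lats2 between the windows.

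With the G2 and M phase covariate, 522 genes passed in the first hour, 1 at 120 to 240 min and 525 between the windows, against 0 in each without it. Array weights gave 1 gene at 120 to 240 min and 2859 between the windows, and a pseudocount of 1 gave 1 gene at 120 to 240 min. Leaving out single arrays gave 0 to 2 genes in the first hour, 0 to 1 at 120 to 240 min and 0 to 1014 between the windows. Without one untreated array, the other is assumed to vary like the other groups. The cause was not tested. No paired analysis was possible because each tamoxifen time has 1 array and the titles give no shared replicate numbers.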
